A study of Rattus norvegicus with 9 samples.

Results

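The nuclear genes for subunits of the 5 oxidative phosphorylation complexes were examined in rat hippocampus by RNA-seq. They were taken from the deposited FPKM table by symbol, with the patterns Nduf followed by a, b, c, s or v and a digit, Uqcr, Sdha to Sdhd, Cox4 to Cox8 followed by a, b or c, and Atp5. Assembly factor symbols and pseudogene symbols were dropped, and the row with the highest mean was kept where a symbol had more than 1 row. Of 21138 genes in the table, 84 rows matched and 81 genes remained, with 35 in complex I, 4 in complex II, 8 in complex III, 17 in complex IV and 17 in complex V. FPKM stands for fragments mapped to a gene, scaled to its transcript length and to the mapped fragments of the library. This scaling left the FPKM totals unequal, at 453716 to 635759 over the 9 libraries. Differences between libraries therefore depend on the scaling, as described in the closing section.

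Hippocampal RNA had been sequenced from 3 groups of male wild type Sprague-Dawley rats bought at 6 months of age, with 3 libraries each. INS + VD rats had both common carotid arteries ligated (2-VO, a model of vascular dementia) and were given insulin by the intranasal route at 1 U/kg per day for 8 weeks. VD rats had the same ligation and were given 0.9% saline at 0.5 mL per day. CK rats were not ligated, and the labels list saline for them too, while the methods also state that they were left untreated. Tissue was taken at day 56, and a sham-operated group was not analysed here. The methods speak of 3 biological replicates per group but not of whether each library came from a single rat, and the p-values reflect variation among these libraries alone.

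Oxidative phosphorylation takes place in the inner mitochondrial membrane. Complexes I and II pass electrons from NADH and succinate to ubiquinone, complex III passes them on to cytochrome c, complex IV reduces oxygen, and complex V uses the proton gradient that I, III and IV build to make ATP. Most subunits are encoded in the nucleus and the remainder in mitochondrial DNA. Neurons depend on this pathway for the ion pumping that follows synaptic activity, and the hippocampus is among the regions most easily damaged when blood flow falls.

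Some names need care. Ndufa4 was first placed in complex I and is now counted in complex IV, where it is grouped here. Atp5if1 encodes an inhibitor of ATP synthase and Cox7a2l a factor that joins complexes III and IV, so neither is a subunit in the strict sense. The rule does not take in Ndufab1, Cyc1, Cox4i1 and Cox4i2. By the Entrez numbers in the table, RefSeq gives 3 of the 81 rows to processed pseudogenes (Atp5md, Ndufs6 and the Uqcrb row that was kept). How far reads of the parent genes were counted in these rows was not tested. The row named Cox7a2l2 carries the number of Cox7a2, that of Ndufa10l1 the number of Ndufa10 and that of Atp5f1c the number of the neighbouring gene Taf3.

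VD replicate 1 stood apart from the other 8 libraries. It had 14428 genes above 0 FPKM, against 17441 to 18088 in the others, and an FPKM total of 635759, against 453716 to 548857. Mapped depth was set beside that of CK replicate 1 by single-read steps among genes below 0.6 FPKM. The log2 ratio of these steps was 0.12 for VD replicate 1 and −0.02 to 0.08 for the remaining libraries, so by this measure depth differed little. For VD replicate 1 the value rested on 56 of 667 genes, against 247 to 398 genes in the others, and is less certain. Of 10 hippocampal marker genes, 6 were listed at 0 FPKM in VD replicate 1 and at most 2 in any other library, while their summed FPKM was 125 in VD replicate 1 and 23.0 to 224 elsewhere. Wfs1, a marker of CA1 neurons, was at 44.2, 6.09 and 197 FPKM in INS + VD, 84.0, 4.59 and 66.4 FPKM in VD, with 65.8, 69.1 and 5.96 FPKM in CK, here and throughout in the order of replicates 1, 2 and 3. Prox1, a marker of dentate granule cells, was listed at 0 FPKM in VD replicate 1 and at 0.745 to 9.65 FPKM elsewhere, while Iyd and Lct stayed below 0.1 FPKM in every library. Markers of other regions were not equal between libraries. The summed FPKM of 10 cerebellar markers was 3127 in CK replicate 3 and 50.5 to 120.4 elsewhere, and 6 of them were at 0 in VD replicate 1. That of 10 olfactory bulb markers was 455 and 736 in VD replicates 1 and 3 and 34.0 to 386 elsewhere. That of 9 hindbrain and spinal cord markers was 113 in VD replicate 2 and at most 7.32 elsewhere. That of 10 choroid plexus markers was 1747 in INS + VD replicate 1 and at most 25.5 elsewhere. The part of these differences in the results was not tested.

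VD replicate 1 also had by far the highest level of the subunit genes. The 81 members summed to 6984, 9851 and 6466 FPKM in INS + VD replicates 1, 2 and 3, to 27514, 10401 and 9409 FPKM in VD, and to 8790.3, 8432 and 11353 FPKM in CK. VD replicate 1 thus held 4.33% of its total FPKM in these genes, against 1.43% to 2.43% in the 8 others. The lowest sums were those of INS + VD replicates 1 and 3, whereas INS + VD replicate 2 lay among the CK and VD libraries.

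**Figure D1:**
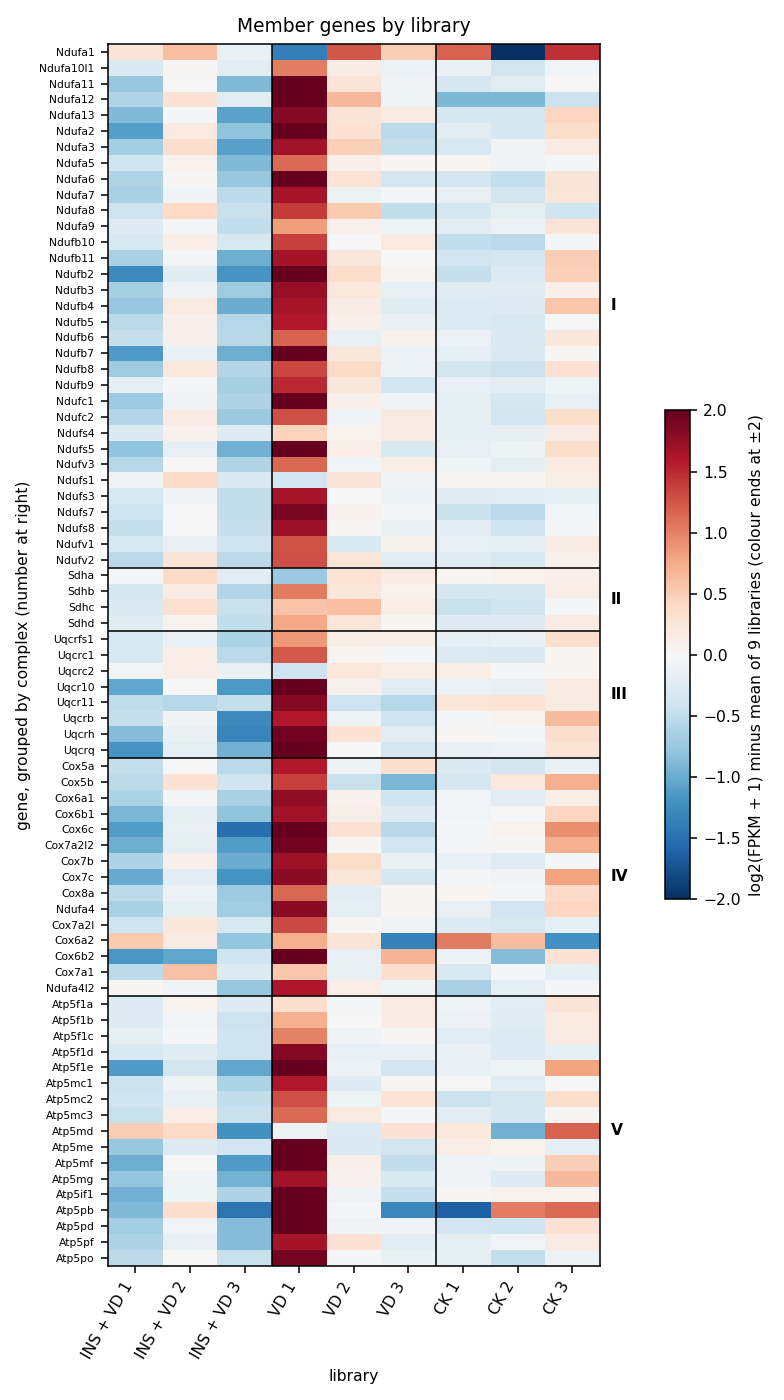
Each row is 1 of 77 members that passed the filter on low values and each column a library, ordered as INS + VD, VD and CK. The colour gives log2(FPKM + 1) minus the mean of that gene over the 9 libraries and is cut at 2 in both directions. Over the 78 members fitted, VD replicate 1 is the highest of the 9 libraries for 69 and INS + VD replicate 3 the lowest for 44.

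Of the 81 members, 78 reached 0.5 FPKM in 3 or more of the 9 libraries and entered the fit. Ndufs6, Cox7b2 and Cox8b did not. VD replicate 1 was above each of the 8 other libraries for 69 of the 78 (88.5%), against 25.9% of the 15099 genes fitted, and its value was a median of 3.50 times the mean of the 8 others, against 0.770 times over all genes fitted. Genes of ribosomal proteins showed the same. The median ratio was 2.85 for 74 genes of the mitochondrial ribosome and 4.33 for 91 genes of the cytosolic ribosome, so the excess was not limited to the respiratory chain.

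By kind of subunit, the ratio of VD replicate 1 to the mean of the other libraries had a median of 4.99 for the 4 stalk subunits of complex V, 4.28 for the 5 small subunits of complex III, 3.72 for the 10 general subunits of complex IV, 3.47 for the 27 fitted accessory subunits of complex I and 3.45 for the 7 membrane subunits of complex V. It was 2.71 for the 7 core subunits of complex I, 2.19 for the 5 F1 subunits of complex V and 1.64 for the 2 membrane anchors of complex II. The kinds overlapped, with 0.217 to 7.33 for accessory and 0.736 to 4.36 for core subunits of complex I, and the differences between kinds were not tested. For 3 large subunits VD replicate 1 was instead the lowest of the 9 libraries.

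Ndufs1, the largest subunit of complex I and a carrier of iron-sulphur clusters, was at 84.8, 116 and 72.1 FPKM in INS + VD, 68.2, 106 and 84.5 FPKM in VD, with 89.9, 91.1 and 96.1 FPKM in CK. Sdha, the flavoprotein that oxidises succinate, was at 125, 168 and 110.4 FPKM in INS + VD, 76.9, 157 and 143 FPKM in VD, with 132, 135 and 139 FPKM in CK. Uqcrc2, a core protein of complex III, was at 109.8, 124 and 104 FPKM in INS + VD, 84.7, 132 and 123 FPKM in VD, with 123, 112 and 117 FPKM in CK. For these genes the groups overlapped in each comparison, and the log2 fold changes lay between −0.17 (Sdha, VD vs. CK) and 0.14 (Sdha, INS + VD vs. VD). Without VD replicate 1 that of Sdha for VD vs. CK was 0.15 and that of Ndufs1 0.04, against −0.12 with it.

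**Figure D2:**
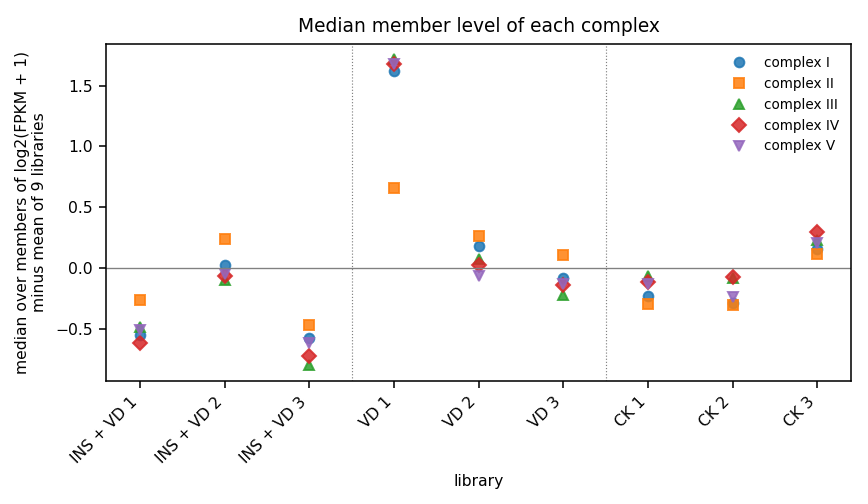
For each library, the points give the median over the fitted members of a complex of log2(FPKM + 1) minus the mean of the 9 libraries. Complexes I, III, IV and V lie between 1.62 and 1.72 in VD replicate 1, where complex II is at 0.66, and INS + VD replicates 1 and 3 are the lowest libraries for complexes I, III, IV and V.

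The first comparison, VD vs. CK, sets ligated rats beside unligated ones. No sham-operated library is among the 9, so carotid ligation cannot be told apart from the rest of the operation. Subunit genes were on average higher in VD, with a median log2 fold change on the log2(FPKM + 1) scale of 0.57 and 72 of 78 members above 0, against −0.02 over all genes fitted, of which 48.7% were above 0. Most of that rested on VD replicate 1, since without it the median was 0.11, with 52 of 78 above 0 against 52% of all genes. Ndufa12 alone had a limma p below 0.05 before adjustment and a log2 fold change of 1 or more, 1 of 78 members against 3.89% of all genes, and 0 members were lower by the same criteria, against 4.89%. Without VD replicate 1 it was again 1 member, against 3.65% of all genes. The VD libraries were above the CK libraries without overlap for 9 members, or 11.5%, against 9.74% of all genes. Both shares were close to or below the background. At limma's adjusted p, 0 members and 0 of all genes passed, 3 members were higher at an unadjusted p below 0.05 (6.41% of all genes), and the smallest adjusted p was 0.306.

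The second comparison, INS + VD vs. VD, asks what insulin did in ligated rats. Subunit genes were lower in INS + VD, with a median log2 fold change of −0.86 and 73 of 78 members below 0. Over all genes fitted the median was 0.04, and 53% were above 0. With the criteria used for Ndufa12, 15 members (19.2%) were lower and 0 higher, against 2.54% of all genes lower and 3.64% higher. The INS + VD libraries lay below the VD libraries without overlap for 10 members (12.8%), against 7.6% of all genes, and without VD replicate 1 for 10 members against 13.2% of all genes, so that the excess over all genes was gone. The 15 were Ndufa11, Ndufa13, Ndufb2, Ndufb3, Ndufb7, Ndufb11 and Ndufs5 of complex I, Uqcr10 and Uqcrh of complex III, Cox6b1, Cox6b2, Cox6c, Cox7b and Cox7c of complex IV, and Atp5pf of complex V. No core subunit of complex I and no subunit of complex II was among them. Without VD replicate 1 the median was −0.36, with 76 of 78 below 0, against −0.04 over all genes, of which 46.3% were above 0. In that fit 2 members, Ndufb2 and Cox6b2, kept both criteria, against 1.42% of all genes lower. Adjusted over all genes, limma called 0 members and 0 of all genes, 17 members were lower at an unadjusted p below 0.05 (4.48% of all genes), and the smallest adjusted p was 0.512.

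The third comparison, INS + VD vs. CK, sets treated ligated rats beside unligated ones and does not contain VD replicate 1 in its means. Subunit genes were somewhat lower in INS + VD, with a median log2 fold change of −0.28 and 68 of 78 members below 0, against 0.00 over all genes fitted, of which 49.7% were above 0. The INS + VD libraries lay below the CK libraries without overlap for 12 members (15.4%), against 5.27% of all genes, and above them for 0, against 5.85%. The 12 were Uqcr11, Uqcrb, Uqcrh and Uqcrq of complex III, Cox6b1, Cox6c, Cox7a2l2, Cox7c and Cox8a of complex IV, and Atp5f1e, Atp5me and Atp5if1 of complex V. With the spread of all 9 libraries, 0 members reached the unadjusted p, and 0 were past it with the fold change minimum, against 0.305% of all genes lower and 0.636% higher. With VD replicate 1 left out, the fold changes stayed as they were, 15 members (19.2%) were lower at the unadjusted p without a fold change minimum, against 1.34% of all genes, and 3 of them, Cox6c, Cox7c and Atp5f1e, also had a log2 fold change of at most −1, against 0.397% of all genes. At limma's adjusted p, 0 members and 0 of all genes passed in either fit, and the smallest adjusted p was 1 and 0.999. The 3 comparisons share libraries, so their values are given side by side and not as separate evidence.

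**Figure D3:**
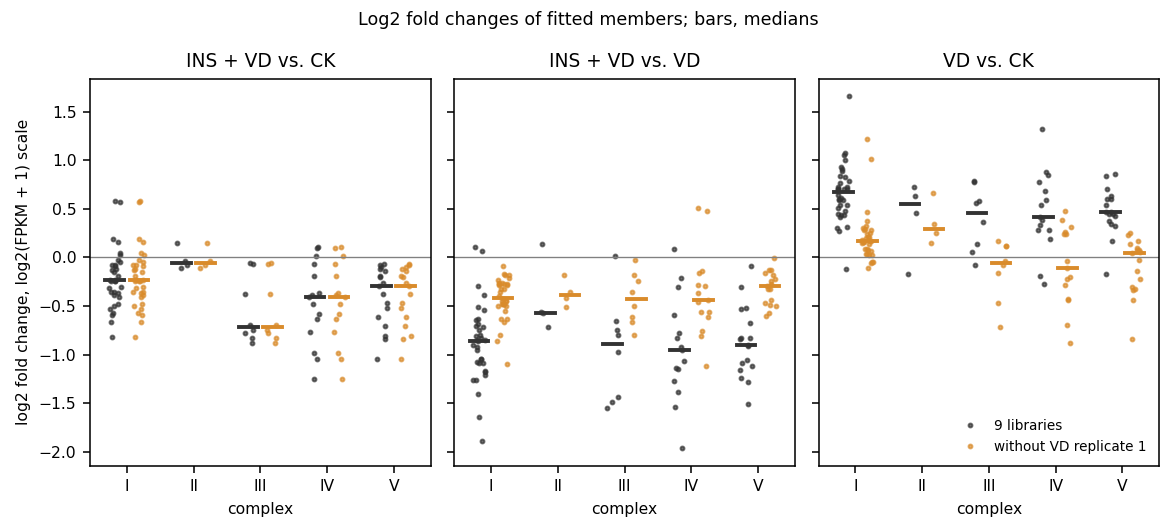
Log2 fold changes on the log2(FPKM + 1) scale of the fitted members of each complex in the 3 comparisons, from the fit of 9 libraries (dark) and without VD replicate 1 (orange), with medians as bars. In INS + VD vs. CK the median is −0.72 for complex III and −0.05 for complex II, and the VD vs. CK medians are between −0.10 and 0.30 without VD replicate 1.

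Within INS + VD, the lower level came from replicates 1 and 3. Both were below each of the 7 other libraries for 54 of 78 members (69.2%), against 3.66% of all genes fitted. These 2 libraries were picked because the summed level of the members was lowest there, so the count is a description. INS + VD replicate 2 was the lowest library for 0 members. INS + VD replicate 2 was, with VD replicate 2 and CK replicate 3, 1 of the 3 libraries low in the CA1 marker Wfs1. Other single hippocampal markers did not all set the same libraries apart, since Prox1 was highest in CK replicate 3. Neurod6 was at 2.08 FPKM in INS + VD replicate 2 and 3.49 FPKM in VD replicate 2. It was also at 2.65 FPKM in VD replicate 3, where CK replicate 3 had 20.2. The summed FPKM of the hippocampal markers, Wfs1 among them, was lowest in the 3 libraries low in Wfs1. It was 43.5 in INS + VD replicate 2, 23.0 in VD replicate 2 and 46.4 in CK replicate 3, against 84.2 to 224 elsewhere. Wfs1 itself made up 197 of the 224 in INS + VD replicate 3 and 66.4 of the 84.2 in VD replicate 3. The sum thus largely restates how these 3 libraries were picked, and no sum without Wfs1 was made. Leaving these 3 libraries out gave medians of −0.32 for INS + VD vs. CK, −1.31 for INS + VD vs. VD and 0.86 for VD vs. CK, with 0 lower, 25 lower and 5 higher members at the unadjusted p with the fold change minimum, against 0.245%, 5.76% and 6.05% of all genes. In whole tissue, fewer cells with many mitochondria and less RNA per cell cannot be told apart.

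Summed markers of cell types also differed between libraries. As sums, those of microglia and neurons set VD apart from both other groups without overlap, whereas those of astrocytes and oligodendrocytes overlapped between the groups. Single markers did not all follow the sums. Of the 10 microglial and of the 10 neuronal markers, 8 and 2 had log2 fold changes of opposite sign in VD vs. CK and in INS + VD vs. VD. The summed FPKM of 10 microglial markers was 174 to 243 in INS + VD and 271 to 456 in VD, with 112 to 221 in CK, and of these markers P2ry12 was at 0 in VD replicate 1. At the unadjusted p with the fold change minimum, 4 of the 10 were lower in INS + VD vs. VD and 4 higher in VD vs. CK, and 0 and 5 without VD replicate 1. That of 10 neuronal markers was 2812 to 3120.4 in INS + VD and 2045 to 2750.3 in VD, with 2952 to 3691 in CK, and 2 of the 10 were lower in VD vs. CK. That of 10 astrocyte markers was 2321 to 3536 in INS + VD and 2794 to 5645 in VD, with 1877 to 3151 in CK, and 2 of the 10 were higher in VD vs. CK. That of 10 oligodendrocyte markers was 1537 to 8777 in INS + VD and 1453 to 15256 in VD, with 4429.6 to 5309.8 in CK. Over all genes fitted, 2.54% were lower in INS + VD vs. VD by these criteria, and 3.89% were higher and 4.89% lower in VD vs. CK. Without VD replicate 1, 1.42% were lower in INS + VD vs. VD and 3.65% higher in VD vs. CK. The part of the cell type markers in the results for the members was not tested.

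In complex I, Ndufb2, a small accessory subunit of the membrane arm, was among the members with the largest differences. It was at 37.9, 79.1 and 40.5 FPKM in INS + VD, 559, 119 and 97.1 FPKM in VD, with 67.7, 77.2 and 130.1 FPKM in CK. All VD libraries were above all INS + VD libraries, and the CK libraries overlapped with both. Ndufb2 had a log2 fold change of −1.89 for INS + VD vs. VD (standard error 0.64, limma unadjusted p = 0.0153, adjusted p = 0.512), which was −1.10 when VD replicate 1 was left out (unadjusted p = 0.0236). The gene, ENSRNOG00000026616, lies on the plus strand of chromosome 4 from 67378188 to 67385266 in the coordinates of the table, whose build is uncertain because the submission names a mouse genome for rat identifiers.

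Ndufa12, an accessory subunit related to an assembly factor that it replaces late in assembly, was the single member at the unadjusted p with the fold change minimum in VD vs. CK. It was at 5.53, 11.1 and 7.43 FPKM in INS + VD, 44.2, 14.5 and 8.26 FPKM in VD, with 4.30, 4.30 and 6.33 FPKM in CK. All VD libraries exceeded all CK libraries, whereas INS + VD overlapped with both. The log2 fold change for VD vs. CK was 1.66 (standard error 0.54, limma unadjusted p = 0.0135, adjusted p = 0.306), and was 1.02 when VD replicate 1 was left out (unadjusted p = 0.0221). For INS + VD vs. CK it was 0.57 (adjusted p = 1), on the opposite side of 0 from most members.

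Ndufa13 and Ndufb7 followed Ndufb2. Ndufa13, also known as GRIM-19, was at 81.9, 149.7 and 71.8 FPKM in INS + VD, against 538, 181 and 170.02 FPKM in VD, with 119, 119.9 and 204 FPKM in CK. Ndufb7, an accessory subunit on the intermembrane side, was at 32.8, 66.9 and 36.8 FPKM in INS + VD, against 446, 85.4 and 67.3 FPKM in VD, with 63.9, 59.5 and 74.2 FPKM in CK. In both genes every VD library was above every INS + VD library, although for Ndufb7 the gap between VD replicate 3 and INS + VD replicate 2 was under 1 FPKM. The log2 fold changes for INS + VD vs. VD were −1.40 (standard error 0.50, limma adjusted p = 0.512) for Ndufa13 and −1.64 (standard error 0.64, limma adjusted p = 0.512) for Ndufb7. They were −0.86 and −0.79 without VD replicate 1.

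Ndufb10 and Ndufs7 were among the 9 members without overlap between VD and CK. Ndufb10, an accessory subunit of the membrane arm, was at 300.5, 116 and 133 FPKM in VD, against 82.0, 79.2 and 112 FPKM in CK, a log2 fold change of 0.89 (standard error 0.38, limma unadjusted p = 0.0431, adjusted p = 0.385) that was 0.47 without VD replicate 1. Ndufs7, the core subunit that holds the last iron-sulphur cluster before ubiquinone, was at 472, 133 and 123 FPKM in VD, against 91.6, 86.3 and 121 FPKM in CK, a log2 fold change of 1.0 (standard error 0.49, limma adjusted p = 0.408) that was 0.38 without that library. In both genes the lowest VD library exceeded the highest CK library by a few FPKM.

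With all 9 libraries, the core subunits of complex I had smaller median differences than the accessory subunits. Ndufv1, the NADH-binding flavoprotein, was at 88.3, 98.3 and 83.1 FPKM in INS + VD, 268, 88.4 and 117 FPKM in VD, with 98.3, 97.4 and 122 FPKM in CK. For Ndufv1 the groups overlapped in each comparison. The median log2 fold change of the 7 core subunits was −0.08 for INS + VD vs. CK, −0.71 for INS + VD vs. VD and 0.59 for VD vs. CK, while that of the 27 accessory subunits was −0.31, −0.92 and 0.70. Without VD replicate 1, core and accessory subunits were at −0.26 and −0.45 for INS + VD vs. VD, and both at 0.17 for VD vs. CK. These medians are descriptions, and the differences between them were not tested.

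Ndufa1, a small subunit needed for assembly of the membrane arm, had a value near 0 in 1 library. It was at 18.7, 24.1 and 13.9 FPKM in INS + VD, 5.39, 38.1 and 22.4 FPKM in VD, with 36.5, 0.268 and 44.6 FPKM in CK. The CK values thus spanned the values of both other groups, and CK replicate 2 was far below its group. Its standard error, 1.25, was the widest of the members named here.

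**Figure D4:**
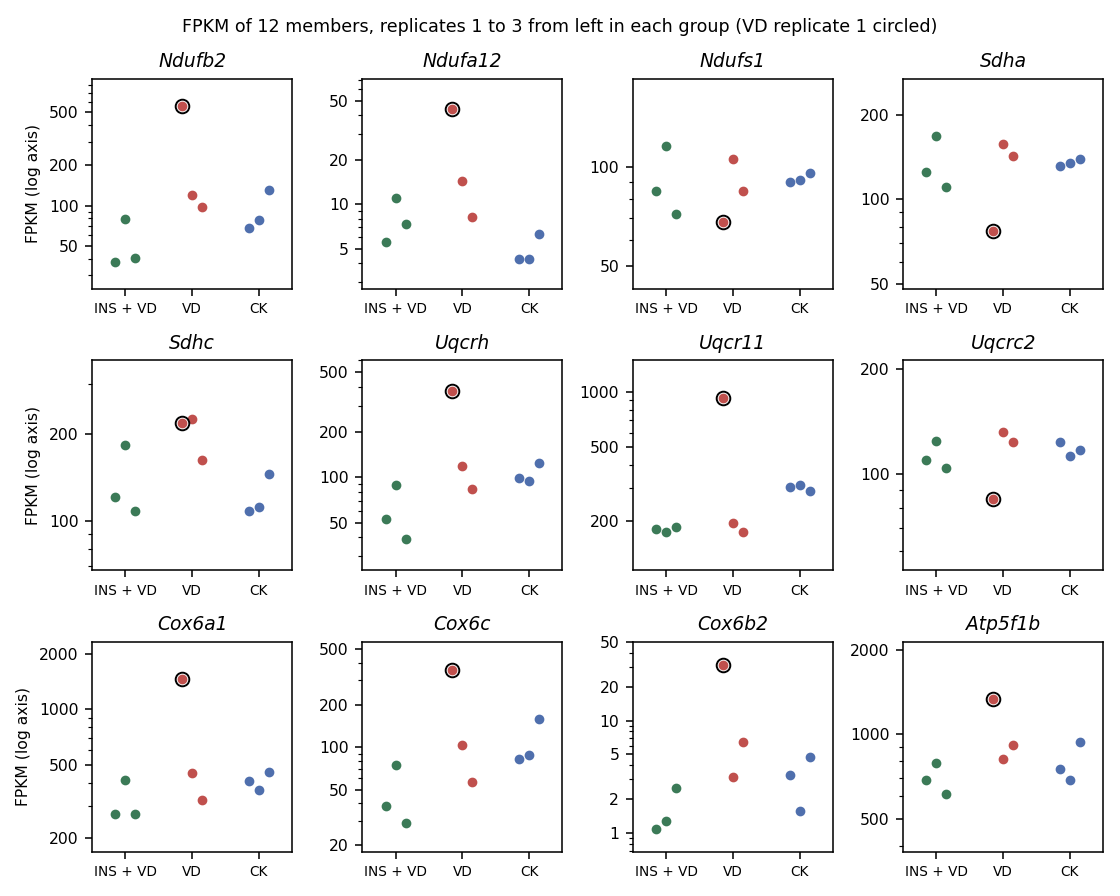
FPKM on a log axis of 12 members in INS + VD, VD and CK, with replicates 1, 2 and 3 from left to right in each group and VD replicate 1 circled. Ndufs1, Sdha and Uqcrc2 have VD replicate 1 as their lowest library, and Uqcr11 lies between 173 and 194 FPKM in the 5 other ligated libraries and between 291 and 311 FPKM in CK.

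Complex II, which has no mitochondrially encoded subunit and pumps no protons, differed least between INS + VD and CK, with a median log2 fold change of −0.05 over 4 genes. Sdhc, a membrane anchor that binds haem, was at 121, 184 and 108 FPKM in INS + VD, 219.6, 226 and 163 FPKM in VD, with 108, 112 and 146 FPKM in CK. Every VD library was above every CK library. The size of this difference changed little without VD replicate 1. The log2 fold change for VD vs. CK was 0.73 (standard error 0.29, limma unadjusted p = 0.0356, adjusted p = 0.371) and 0.66 without it (unadjusted p = 0.0535).

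Sdhb, the iron-sulphur subunit, was at 109, 156 and 92.1 FPKM in INS + VD, 286, 164 and 147 FPKM in VD, with 109.9, 109 and 152 FPKM in CK. Sdhd, the other anchor, was at 77.1, 95.6 and 64.9 FPKM in INS + VD, 155, 108 and 93.2 FPKM in VD, with 76.2, 76.2 and 103 FPKM in CK. For both genes VD replicate 1 was the highest library and the groups overlapped. Their log2 fold changes for VD vs. CK were 0.64 and 0.46, with limma adjusted p of 0.435 and 0.479.

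Complex III split between its large and its small subunits. The 5 small subunits had log2 fold changes of −0.88 to −0.70 for INS + VD vs. CK, with a median of −0.77. The core proteins Uqcrc1 and Uqcrc2 were at −0.07 and −0.06, and the Rieske iron-sulphur protein Uqcrfs1 at −0.38.

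Uqcr11, a small accessory subunit of complex III, had the tightest INS + VD and CK groups of these. It was at 181, 174 and 185 FPKM in INS + VD, 926, 194 and 173 FPKM in VD, with 304, 311 and 291 FPKM in CK. INS + VD and VD replicates 2 and 3 were all below every CK library, and VD replicate 1 was above them all. Its log2 fold change for INS + VD vs. CK was −0.74, with a standard error of 0.56 in the fit of 9 libraries (limma unadjusted p = 0.218, adjusted p = 1) and a standard error of 0.16 when VD replicate 1 was left out (unadjusted p = 0.00153, adjusted p = 0.999). For VD vs. CK the direction turned with that library, at 0.06 with it and −0.72 without it (standard error 0.17, limma unadjusted p = 0.00356, adjusted p = 0.212). ENSRNOG00000016952, the identifier of Uqcr11, is placed on chromosome 7 from 12171185 to 12175835.

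The same order, with INS + VD and VD replicates 2 and 3 below CK, held for 4 members (5.13%), Uqcr11, Uqcrb, Atp5me and Atp5if1, against 1.94% of all genes fitted, and the opposite order held for 0 members, against 3.34%. This grouping of libraries was chosen after the values were seen. Atp5me, the e subunit at the dimer contact of ATP synthase, was at 33.5, 47.8 and 43.8 FPKM in INS + VD, 235, 46.4 and 44.3 FPKM in VD, with 62.7, 60.3 and 50.3 FPKM in CK. Atp5if1, which blocks ATP hydrolysis when the membrane potential is lost, was at 27.7, 51.5 and 35.5 FPKM in INS + VD, 227, 52.3 and 39.5 FPKM in VD, with 56.2, 57.4 and 57.7 FPKM in CK. In Atp5me the gap between CK replicate 3 and INS + VD replicate 2 was small.

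Uqcrh, the hinge protein between cytochrome c1 and cytochrome c, was at 53.2, 89.5 and 38.7 FPKM in INS + VD, 376, 119.8 and 83.7 FPKM in VD, with 99.4, 95.4 and 124 FPKM in CK. It was lower in each INS + VD library than in any CK library, and overlapped between INS + VD and VD. Its log2 fold change was −0.88 for INS + VD vs. CK (standard error 0.54, limma adjusted p = 1) and −1.44 for INS + VD vs. VD (standard error 0.54, limma unadjusted p = 0.0249, adjusted p = 0.512). The second was −0.80 without VD replicate 1 (unadjusted p = 0.0541).

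Uqcrq, the small subunit also called QP-C, was at 10.997, 23.0 and 12.9 FPKM in INS + VD, 169.6, 26.4 and 20.4 FPKM in VD, with 23.5, 23.9 and 31.7 FPKM in CK. Uqcr10, another small subunit, was at 33.3, 69.8 and 31.0 FPKM in INS + VD, 375, 74.3 and 59.5 FPKM in VD, with 64.1, 62.5 and 79.4 FPKM in CK. In both genes INS + VD replicate 2 was close to the CK libraries and replicates 1 and 3 well below them. Uqcrfs1 was at 104, 116 and 83.3 FPKM in INS + VD, 238, 142 and 142 FPKM in VD, with 114, 119 and 165 FPKM in CK. Every VD library was above every INS + VD library for Uqcrfs1 (log2 fold change −0.75, standard error 0.30, limma adjusted p = 0.512), also without VD replicate 1, where it was −0.50.

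Uqcrc1 was at 147, 201 and 125 FPKM in INS + VD, 429, 188 and 177 FPKM in VD, with 151, 149 and 188 FPKM in CK, and all groups overlapped. The chosen Uqcrb row, which RefSeq gives to a pseudogene on chromosome 1, was at 14.1, 18.9 and 7.65 FPKM in INS + VD, 62.0, 18.7 and 14.7 FPKM in VD, with 19.5, 20.9 and 31.2 FPKM in CK. The other row, on chromosome 7, was at 10.6, 17.8 and 11.2 FPKM in INS + VD, 38.1, 15.9 and 12.8 FPKM in VD, with 13.02, 12.7 and 18.2 FPKM in CK. The INS + VD libraries lay below the CK libraries in the chosen row and overlapped with them in the other.

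In complex IV the 10 general subunits had log2 fold changes of −1.25 to −0.07 for INS + VD vs. CK, with all 10 below 0 and a median of −0.53. Cox6c, a small subunit of the membrane part, was at 38.0, 74.4 and 28.9 FPKM in INS + VD, 354, 104 and 56.6 FPKM in VD, with 82.3, 87.5 and 159.8 FPKM in CK. Every INS + VD library was below every CK library. Its log2 fold change was −1.25 for INS + VD vs. CK (standard error 0.64, limma unadjusted p = 0.0829, adjusted p = 1), the lowest of the members, and −1.54 for INS + VD vs. VD (standard error 0.64, limma unadjusted p = 0.04, adjusted p = 0.512). Without VD replicate 1 the first had a standard error of 0.43 (unadjusted p = 0.0194) and the second was −0.81 (unadjusted p = 0.129).

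Cox7c, another small membrane subunit, was at 60.9, 107 and 53.3 FPKM in INS + VD, 437, 147 and 97.7 FPKM in VD, with 122, 118 and 218 FPKM in CK. The row named Cox7a2l2 was at 70.4, 123 and 63.8 FPKM in INS + VD, 532, 141 and 106 FPKM in VD, with 135, 142 and 229 FPKM in CK. For both, INS + VD replicate 2 lay below the lowest CK library, and CK replicate 3 was the highest of its group. Their log2 fold changes for INS + VD vs. CK were −1.05 (limma adjusted p = 1) for Cox7c and −0.99 (limma adjusted p = 1) for Cox7a2l2.

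Cox8a, a small general subunit, was at 229, 301 and 198 FPKM in INS + VD, 729, 284 and 335 FPKM in VD, with 336, 321 and 429 FPKM in CK. Cox6b1, which sits at the intermembrane side of the dimer, was at 67.9, 113 and 72.9 FPKM in INS + VD, 414, 139 and 107 FPKM in VD, with 124, 129 and 173 FPKM in CK. Both were below CK in every INS + VD library. Their log2 fold changes for INS + VD vs. CK were −0.59 for Cox8a and −0.76 for Cox6b1, and limma's adjusted p was 1 for each.

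Cox5a, a subunit on the matrix side, followed another order. It was at 189, 264 and 181 FPKM in INS + VD, 804, 247 and 332 FPKM in VD, with 215, 204 and 239 FPKM in CK, so that every VD library was above every CK library while INS + VD overlapped with both. The log2 fold change for VD vs. CK was 0.88 (standard error 0.42, limma adjusted p = 0.405) and 0.39 without VD replicate 1. Cox5b, a subunit that binds zinc, was at 61.0, 108 and 66.6 FPKM in INS + VD, 230.4, 64.0 and 46.3 FPKM in VD, with 69.1, 102 and 146 FPKM in CK. Without VD replicate 1 its log2 fold change for VD vs. CK was −0.88 (standard error 0.37, limma unadjusted p = 0.0476, adjusted p = 0.402), against −0.19 with it. Cox6a1, the form of subunit 6a made outside muscle, had the highest FPKM of any complex IV member at 1455 in VD replicate 1, with 272, 416 and 271 FPKM in INS + VD, 449 and 323 FPKM in VD replicates 2 and 3 and 408, 367 and 459 FPKM in CK.

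Tissue-restricted isoforms of complex IV were low. Cox6b2, known as the testis form of Cox6b, was at 1.10, 1.28 and 2.54 FPKM in INS + VD, 31.3, 3.17 and 6.47 FPKM in VD, with 3.31, 1.58 and 4.74 FPKM in CK. All VD libraries were above all INS + VD libraries. The log2 fold change for INS + VD vs. VD was −1.96 (standard error 0.68, limma unadjusted p = 0.0183, adjusted p = 0.512), and was −1.12 when VD replicate 1 was left out (unadjusted p = 0.0331). Cox6a2, the heart and muscle form of Cox6a, was at 3.52, 2.53 and 0.836 FPKM in INS + VD, 4.20, 2.79 and 0.242 FPKM in VD, with 5.4998, 3.85 and 0.370 FPKM in CK, so that each group had 1 low library. Cox7a1, the heart and muscle form of Cox7a, ranged from 0 FPKM in INS + VD replicate 1 to 1.17 FPKM in INS + VD replicate 2.

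Ndufa4l2, a relative of Ndufa4 that is induced under low oxygen in other cells, was at 5.07, 4.69 and 2.53 FPKM in INS + VD, 17.4, 5.56 and 4.62 FPKM in VD, with 2.83, 4.24 and 4.85 FPKM in CK. Its groups overlapped, with a log2 fold change for VD vs. CK of 0.84 (limma adjusted p = 0.448) and 0.31 without VD replicate 1. Cox7b2 was listed at 0.961, 0.455 and 0.236 FPKM in INS + VD, 0 FPKM in each VD library and 0.232, 0.238 and 0.244 FPKM in CK. Cox8b, the muscle form of Cox8, was listed at 2.27 FPKM in VD replicate 1 and 0 to 0.343 FPKM elsewhere, and the Ndufs6 row at no more than 0.493 FPKM.

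Complex V held the member with the highest mean, Atp5f1b, the catalytic beta subunit. It was at 684, 787 and 610.3 FPKM in INS + VD, 1335, 817 and 916 FPKM in VD, with 750.5, 688 and 937 FPKM in CK. Atp5f1a, the alpha subunit that alternates with it, was at 447, 561 and 448 FPKM in INS + VD, 674, 526 and 600.2 FPKM in VD, with 505, 461 and 642 FPKM in CK. All VD libraries were above all INS + VD libraries for Atp5f1b and not for Atp5f1a. The excess of VD replicate 1 over the mean of the other libraries was 1.73 times for Atp5f1b and 1.29 times for Atp5f1a, below the 4.21 and 6.49 times of the small subunits Atp5f1d and Atp5f1e of the same F1 part.

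Atp5f1e, the epsilon subunit of the central stalk, was at 30.4, 52.6 and 32.5 FPKM in INS + VD, 385, 62.7 and 52.0 FPKM in VD, with 62.1, 64.5 and 118 FPKM in CK. Every INS + VD library was below every CK library. Its log2 fold change for INS + VD vs. CK was −1.04 (standard error 0.69, limma unadjusted p = 0.164, adjusted p = 1), with a standard error of 0.32 without VD replicate 1 (unadjusted p = 0.0113). Atp5pf, a subunit of the outer stalk, was at 48.1, 67.1 and 40.3 FPKM in INS + VD, 238, 90.9 and 63.7 FPKM in VD, with 65.4, 71.5 and 83.9 FPKM in CK. Its log2 fold change for INS + VD vs. VD was −1.12 (standard error 0.45, limma adjusted p = 0.512) and −0.58 without VD replicate 1.

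Atp5po, the oligomycin sensitivity protein that joins the outer stalk to F1, was at 162, 231 and 169.8 FPKM in INS + VD, 875, 227 and 212 FPKM in VD, with 203, 166 and 217 FPKM in CK, and the groups overlapped. Atp5mc2, which like Atp5mc1 and Atp5mc3 encodes the c-ring protein, was at 142, 169 and 132 FPKM in INS + VD, 456, 175 and 225 FPKM in VD, with 138, 147 and 238 FPKM in CK. For Atp5mc2 every VD library exceeded every INS + VD library. Atp5pb, the b subunit of the outer stalk, varied within groups, at 2.07, 6.14 and 1.05 FPKM in INS + VD, 38.3, 4.50 and 1.31 FPKM in VD, with 0.808, 10.4 and 11.4 FPKM in CK. The Atp5md row, which RefSeq gives to a pseudogene, ran from 0.921 to 9.14 FPKM over the 9 libraries.

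Genes that belong to the complexes but have other names followed the members. Cox4i1, the largest nuclear subunit of complex IV, was at 483, 609 and 392 FPKM in INS + VD, 2308, 667 and 573 FPKM in VD, with 555, 538 and 668 FPKM in CK. Cyc1, cytochrome c1 of complex III, was at 139, 166 and 128 FPKM in INS + VD, 357, 179 and 163 FPKM in VD, with 161, 154 and 199.98 FPKM in CK. VD replicate 1 was again the highest library and INS + VD replicate 3 the lowest. For INS + VD vs. VD the log2 fold changes were −0.98 for Cox4i1, −0.60 for Cyc1, −0.78 for Ndufab1 (the acyl carrier protein of complex I), −0.81 for Cox4i2 (the form of Cox4 tied to low oxygen) and −0.51 for Cycs (somatic cytochrome c), with limma adjusted p of 0.512 to 0.543. When VD replicate 1 was left out they were −0.35 for Cox4i1, −0.25 for Cyc1, −0.37 for Ndufab1, −0.47 for Cox4i2 and −0.18 for Cycs.

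The 13 mitochondrially encoded subunits did not share the high level of the nuclear ones in VD replicate 1. Their summed FPKM was 67503, 76478 and 69861 in INS + VD, 39619.9, 160743 and 63101 in VD and 65538, 88829 and 59912 in CK, so that VD replicate 1 had the lowest sum and VD replicate 2 the highest. Their median log2 fold change was 0.04 for INS + VD vs. CK, 0.03 for INS + VD vs. VD and −0.02 for VD vs. CK. With that library left out it was −0.50 for INS + VD vs. VD, with 13 of 13 below 0, and 0.49 for VD vs. CK, with 11 of 13 above 0. In that fit these were the directions of the nuclear members, and larger than their −0.36 and 0.11. The directions turned when the 3 libraries low in Wfs1, VD replicate 2 among them, were left out instead. The median was then 0.61 for INS + VD vs. VD, with 11 of 13 above 0, and −0.705 for VD vs. CK, with 12 of 13 below 0. The nuclear members were at −1.31 and 0.86 in that fit.

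With all 9 libraries, 4 lists of other nuclear genes of mitochondria had medians nearer to 0 than the subunit genes. That did not hold for the genes of the mitochondrial ribosome in VD vs. CK, at 0.58 against 0.57. Of 48 assembly factors fitted, 0 were higher and 1 was lower at the unadjusted p with the fold change minimum in INS + VD vs. VD, with a median log2 fold change of −0.34, against 0 of 48 in either direction and a median of 0.32 in VD vs. CK. Of 23 genes of the tricarboxylic acid cycle and pyruvate dehydrogenase, 1 was higher and 0 lower in INS + VD vs. VD (median −0.19), and 0 of 23 passed in VD vs. CK (median 0.13). Of 19 regulators of mitochondrial biogenesis, 1 was higher in INS + VD vs. VD (median −0.06) and 2 were lower in VD vs. CK (median −0.02). Of 16 carriers and uncoupling genes, 0 passed in either comparison, with medians of −0.34 and 0.15. Over all genes fitted, 3.64% were higher and 2.54% lower in INS + VD vs. VD, and 3.89% higher and 4.89% lower in VD vs. CK. For INS + VD vs. CK these 4 lists had medians of −0.07 to −0.01, against −0.28 for the subunit genes. In the 8 libraries without VD replicate 1 they were between −0.19 and −0.04 for INS + VD vs. VD, against −0.36 for the subunit genes, and between −0.02 and 0.12 for VD vs. CK, where the 0.12 of the assembly factors was no nearer to 0 than the 0.11 of the subunit genes. At limma's adjusted p, 0 genes of these lists passed.

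Ribosomal protein genes had medians in the same directions as the members. The 74 genes of the mitochondrial ribosome had medians of −0.08 for INS + VD vs. CK, −0.61 for INS + VD vs. VD and 0.58 for VD vs. CK, and the 91 of the cytosolic ribosome −0.25, −1.16 and 0.90. Of the cytosolic list, 39 of 91 were lower in INS + VD vs. VD and 17 higher in VD vs. CK at the unadjusted p with the fold change minimum. The shares of all genes were 2.54% and 3.89%. Without VD replicate 1 these counts were 2 and 2 of 91, against 1.42% and 3.65% of all genes.

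**Figure D5:**
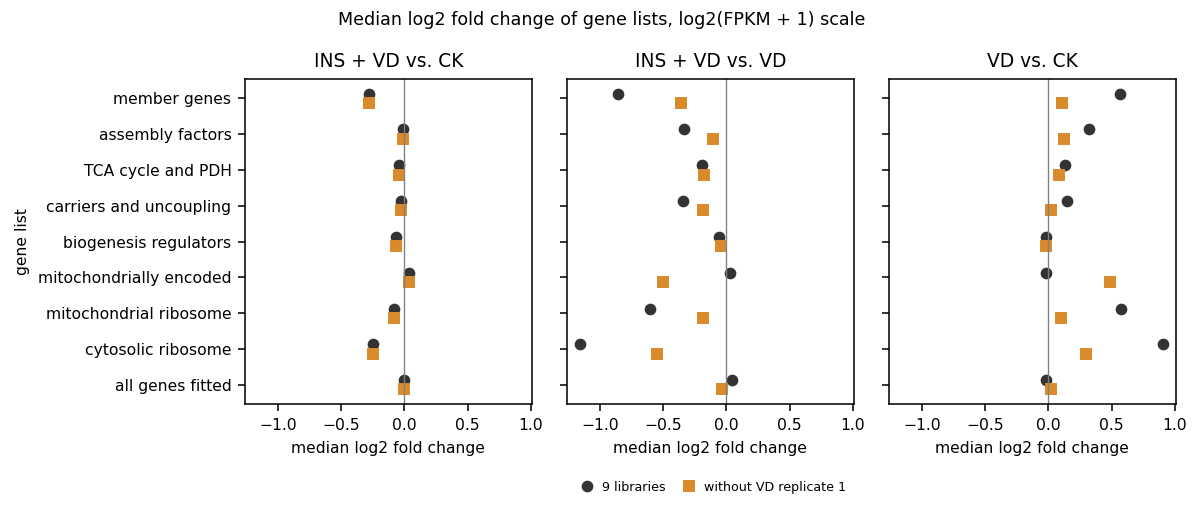
Median log2 fold change on the log2(FPKM + 1) scale of the fitted member genes and of other gene lists in the 3 comparisons, from 9 libraries (circles) and without VD replicate 1 (squares). In INS + VD vs. VD the member genes are at −0.86 and −0.36, the cytosolic ribosome at −1.16 and −0.55 and all genes fitted at 0.04 and −0.04.

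The members varied together over the libraries. Over the 3003 pairs of the 78 fitted members, the Pearson correlation of log2(FPKM + 1) over the 9 libraries had a median of 0.90 and Spearman's rho a median of 0.72. Without VD replicate 1 the medians were 0.71 and 0.64, and after group means were removed from these 8 libraries 0.76 and 0.67. The pairs share libraries and total FPKM, and pairs of other genes were not measured, so these values describe the table only. Over the 8 libraries, Cox6a2 (r = −0.18), Uqcr11 (0.20), Ndufa1 (0.34) and Atp5me (0.38) were the least like the median of the other members.

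Promoters of some members are shown as a description, and a link between their letters and the levels of the genes was not tested. RefSeq (GRCr8) windows from 250 bases before to 50 after the start were matched for 69 of the 81 members and searched on both strands for the letters GCGCANGC (the core of the NRF1 motif), CCGGAAG (ETS factors), AAGATGGC (YY1) and GGGCGG (SP1), 4 motifs known from promoters of respiratory genes in mammals. The NRF1 letters were in 20 of 69 windows (29.0%), against 8.98% of all 33469 windows and 18.5% of the 10613 of genes fitted here. The ETS letters were in 18 (26.1%), against 8.75% and 16.2%, and the YY1 letters in 15 (21.7%), against 3.17% and 5.25%. The SP1 letters were in 27 (39.1%), against 33.1% of all windows and 62.1% of those of genes fitted. At least 1 of the NRF1, ETS and YY1 motifs was in 41 windows. The 150 bases before the start are given 5′ to 3′ for the following members, with letters of the NRF1 and ETS motifs in capitals.
Ndufa12: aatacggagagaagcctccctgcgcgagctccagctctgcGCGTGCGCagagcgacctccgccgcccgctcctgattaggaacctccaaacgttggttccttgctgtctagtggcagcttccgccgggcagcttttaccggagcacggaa
Ndufa13: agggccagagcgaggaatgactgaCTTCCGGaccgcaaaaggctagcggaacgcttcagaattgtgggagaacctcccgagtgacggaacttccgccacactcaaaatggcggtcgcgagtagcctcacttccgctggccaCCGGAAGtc
Uqcrh: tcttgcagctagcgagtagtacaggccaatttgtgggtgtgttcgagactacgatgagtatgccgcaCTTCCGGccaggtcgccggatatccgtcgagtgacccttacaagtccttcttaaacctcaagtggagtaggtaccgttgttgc
Uqcrc1: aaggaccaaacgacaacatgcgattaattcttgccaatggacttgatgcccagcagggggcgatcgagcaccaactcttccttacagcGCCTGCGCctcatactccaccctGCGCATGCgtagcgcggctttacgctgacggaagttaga
Sdha: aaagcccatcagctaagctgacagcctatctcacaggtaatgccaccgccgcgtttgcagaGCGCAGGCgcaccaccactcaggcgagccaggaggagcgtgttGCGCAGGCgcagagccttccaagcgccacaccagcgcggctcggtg
Ndufa12, at chr7:30658166-30658315 on the plus strand, holds 1 NRF1 match, and Uqcrc1, at chr8:118468073-118468222 on the plus strand, holds 2. Ndufa13, at chr16:19560376-19560525 on the plus strand, holds 2 ETS matches, and Uqcrh, at chr5:134790883-134791032 on the minus strand, holds 1. Sdha, at chr1:30764403-30764552 on the plus strand, holds 2 NRF1 matches. Matches thus stood before genes that were highest in VD replicate 1, such as Uqcrh, as well as before Sdha, which was lowest there, and a match of letters does not show that a factor binds.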

How the data were processed

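HISAT2 was used by the authors for alignment, and they deposited FPKM per gene and library, 1 table for the 9 libraries, and the submission notes name GRCm38 and mm10 although the gene identifiers are those of rat. Counts are not in the table used here, so no counting interval is given. The deposited FPKM were analysed as log2(FPKM + 1), which understates fold changes of low genes, and 15099 genes reaching 0.5 FPKM in 3 or more libraries were kept. One limma model (version 3.58.1 in R 4.3.3) with 3 groups and a trend gave the 3 comparisons, with Benjamini-Hochberg adjustment over these genes. Columns with the authors' own comparisons (fold changes and p-values) were not used. The authors' thresholds, an adjusted p of 0.05 and an absolute log2 fold change of 1, were kept, and calls before adjustment (p below 0.05) were counted too. With 3 libraries a group, 0.1 is the smallest two-sided p of an exact permutation test. The fit was tested on simulated data. Members, gene lists and alternatives were chosen with earlier results of these data known. Atp5if1, a member, was taken out of the list of carriers after a first count. The rule for named members took up to 3 per complex with the smallest limma p in VD vs. CK and in INS + VD vs. VD, catalytic or core subunits, tissue isoforms, the highest and lowest means, members at 0 or below the filter, and complex genes outside the symbol rule, and others were chosen after their values were seen. Alternatives changed the pseudocount, filter, scaling, prior, weights, libraries and members. Python 3.11.15 and matplotlib 3.10.9 were used for figures. The NRF1 letters searched in promoters were shortened to the motif's core after a longer form had been counted. The values of 1 fitted member are not reported here by name and are not drawn in the heat map.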

Additional observations from a re-analysis of the deposited data

How the results depend on the processing

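The median log2 fold changes of the members kept their sign under every alternative run, with −0.48 to −0.13 in INS + VD vs. CK, −1.31 to −0.36 in INS + VD vs. VD, 0.11 to 0.88 in VD vs. CK, and 0 members passed the adjusted p in any of them. Counts at the unadjusted p with the fold change minimum were less stable. For INS + VD vs. VD the 15 lower members became 8 with an equal sum per library, 4 with the 6 libraries compared alone, 9 with array weights and 25 without the 3 libraries low in Wfs1, and they ran from 0 (without INS + VD replicate 1) to 43 (without VD replicate 3) when 1 library was left out, with 2 without VD replicate 1, 28 without VD replicate 2, 23 without INS + VD replicate 2, 2 without INS + VD replicate 3 and 9 without CK replicate 1 or 2. For VD vs. CK the 1 higher member became 2 with median centring and 5 without the 3 libraries, and ran from 1 to 14 (without VD replicate 3) when 1 library was left out. For INS + VD vs. CK the 0 lower members became 3 with 6 libraries and 1 with array weights, and ran from 0 to 3 (without VD replicate 1). Of all genes, 2.54% were lower in INS + VD vs. VD with 9 libraries, 1.42% without VD replicate 1 and 5.76% without the 3 libraries. In VD vs. CK, 3.89%, 3.65% and 6.05% were higher in the same order. No share of all genes is given for the other alternatives, so their counts are not set against a background. The median of complex V for INS + VD vs. VD was −0.29 without VD replicate 1, against −0.90.

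In VD vs. CK, the value for Ndufs1, −0.12, was 0.061 with median centring, 0.065 with array weights and −0.28 to 0.039 when 1 library was left out. That for Sdha, −0.17, was 0.0099, 0.11 and −0.36 to 0.15 in the same order. That for Uqcr11, 0.06, was −0.17 with an equal sum, −0.56 with array weights and −0.72 to 0.49 when 1 library was left out. Of the libraries left out in turn, VD replicate 1 was the only one that turned a sign here. Other than leaving a library out, the cause was not tested. Median centring shifted the median of all genes by 0.18 in VD vs. CK and −0.16 in INS + VD vs. VD, where the members had medians of 0.75 and −1.02. An equal sum shifted it by −0.17 and 0.18, with members at 0.34 and −0.62. Leaving out the rows that RefSeq gives to pseudogenes was chosen after seeing the data.

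Neither the labels nor the methods say whether libraries with the same replicate number share anything. Deviations from group means correlated between −0.317 and 0.383 for libraries with the same number and between −0.362 and 0.385 for other pairs. With the replicate block, 8 members were lower in INS + VD vs. VD, and the share of all genes was not counted for that fit. With 3 libraries a group and no counts in the table, differences of low members such as Cox7b2 and Cox8b were not detectable.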
